A study of Homo sapiens with 6 samples.

Results

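Knockdown of genes from the families that switch ARF GTPases on and off was followed here for its effect on the level of an opioid receptor after agonist. The set held 38 genes, 15 exchange factors and 23 GTPase-activating proteins (GAPs), out of 18905 genes in the screen. They were chosen by family membership and gene name and not by a measured value, although earlier results of these data were known. Every one of them had sgRNA reads. The data came from 1 pooled CRISPR interference screen, in which dCas9 fused to the KRAB repressor was guided by sgRNAs to promoters in HEK293-FLP cells, a human embryonic kidney line with a site for targeted transgene insertion.

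The cells carried DOR-MRS(WT)-APEX2, the delta opioid receptor with the C-terminal recycling sequence of the mu opioid receptor and a peroxidase tag, in a cloned line. All groups shared this background, a multiplicity of infection of about 0.2, selection with puromycin at 0.75 μg/ml, 8 days of knockdown and 90 min of 10 μM DADLE, a delta opioid agonist. The peroxidase then turned over the fluorogenic substrate AUR, and the cells of each of 3 sgRNA sublibraries (H17, H23 and H456) were sorted into the top and bottom quartile of fluorescence, which gave 6 libraries of sgRNA counts. Each quartile of each sublibrary was 1 library without a replicate, and no cells without agonist and no unsorted cells were among them. In the labels, the letter closing each library name stands for the other quartile, so the sample titles were followed, and every sign given here rests on those titles.

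ARF proteins are small GTPases that recruit coats and lipid-modifying enzymes to membranes while bound to GTP. Exchange factors with a Sec7 domain load them with GTP, and GAPs, whose zinc finger supplies a catalytic residue, make them hydrolyse it. ARF1 and its close relatives act mainly at the Golgi, where they bring in COPI and clathrin adaptors, whereas ARF6 acts at the plasma membrane and in endosomal recycling and has long been tied to receptor endocytosis. The comparison addressed whether loss of any one of these regulators changes how much receptor is left after agonist.

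The phenotype of an sgRNA is given on the log2 scale. It is the ratio of its read shares, top quartile over bottom quartile, after subtraction of the median for nontargeting control (NTC) sgRNAs in that sublibrary. A negative phenotype means that the sgRNA was more frequent among cells with little remaining receptor signal. The phenotype of a gene is the mean over its sgRNAs at 1 start site, with the SD over those sgRNAs, and its p-value is that of a two-sided exact Mann-Whitney U test, in which its sgRNAs were ranked among the NTC sgRNAs. With 1 sort per sublibrary, this SD and this p measure the spread between sgRNAs and not that between repeated experiments. No RNA was measured, so whether a member was expressed, and how far its level was lowered, is not known from these data.

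The libraries held 23426498 to 50486627 reads, and the median analysed sgRNA had 593 to 1356 reads per library. The NTC sgRNAs numbered 553 to 739 per sublibrary and had an SD of 0.28 in H23, 0.30 in H456 and 0.47 in H17. Their 1st to 99th percentiles were −0.74 to 0.68 in H23 and −0.83 to 0.77 in H456. In H17 the lower tail was longer, at −2.23 to 0.74.

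No member passed the test. At an adjusted exact p under 0.05 (Mann-Whitney U test, Benjamini-Hochberg over all genes), 0 of the 38 members were called, while 0.476% of all genes were. At the threshold set by pseudogenes of 5 NTC sgRNAs, 0 members were called against 1.18% of all genes. At an unadjusted exact p under 0.05, 4 of the 38 members passed against 8.12% of all genes: ADAP1 and FBXO8 were negative (4.05% of all genes passed in that direction), and SMAP2 and GIT1 were positive (4.07%). Both positive members are in H17, where 318 of 5907 genes passed as positive and 132 as negative. The sgRNAs were all of one sign in 3 members, ADAP1, SMAP2 and GIT1, and in 9.81% of all genes. These counts are near the background of the screen.

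**Figure D1:**
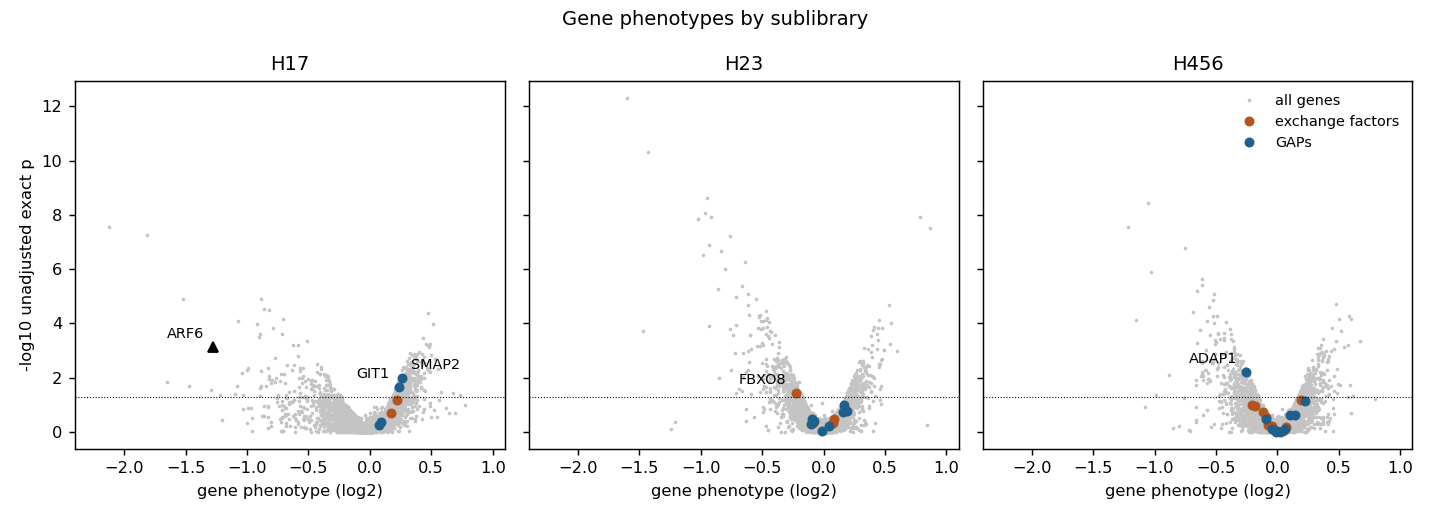
Gene phenotype (log2, x axis) against −log10 of the unadjusted exact p (y axis) for every gene, in 1 panel per sublibrary, with exchange factors in orange, GAPs in blue, ARF6 as a black triangle and the dotted line at p = 0.05. The members lie in the dense centre of each cloud, and the 4 labelled members stand just above the line.

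The promoters of these 4 genes are shown because CRISPR interference acts there. RefSeq windows (GRCh38.p14) were found for 30 of the 38 members, with 1 window for FBXO8 and GIT1, 2 for SMAP2 and 4 for ADAP1, of which the farthest upstream is printed. Each runs 5′ to 3′ over the 150 bases before a transcript start. Capitals mark every GG, and every CC, which is a GG on the other strand, overlapping pairs counted: this pair is the fixed part of NGG, the motif next to which Cas9 proteins bind.
ADAP1, chr7:954681-954830, minus strand: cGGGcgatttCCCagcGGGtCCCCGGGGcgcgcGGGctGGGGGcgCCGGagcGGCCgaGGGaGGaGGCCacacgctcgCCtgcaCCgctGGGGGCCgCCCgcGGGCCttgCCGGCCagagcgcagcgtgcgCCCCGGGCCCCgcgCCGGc
FBXO8, chr4:174283668-174283817, minus strand: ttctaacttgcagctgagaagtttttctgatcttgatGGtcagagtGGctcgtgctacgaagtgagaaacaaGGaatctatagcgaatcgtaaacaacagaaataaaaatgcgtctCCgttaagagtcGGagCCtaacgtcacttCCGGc
SMAP2, chr1:40373577-40373726, plus strand: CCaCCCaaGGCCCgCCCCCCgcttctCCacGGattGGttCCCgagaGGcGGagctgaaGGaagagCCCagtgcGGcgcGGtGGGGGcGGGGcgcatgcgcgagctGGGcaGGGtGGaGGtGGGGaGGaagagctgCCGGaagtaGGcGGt
GIT1, chr17:29589649-29589798, minus strand: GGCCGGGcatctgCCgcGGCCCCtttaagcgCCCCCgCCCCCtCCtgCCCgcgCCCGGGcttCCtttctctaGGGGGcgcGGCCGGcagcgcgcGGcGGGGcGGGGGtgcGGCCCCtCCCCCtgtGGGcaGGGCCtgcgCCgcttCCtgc

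The FBXO8 window held 5 GG and 3 CC with 44% G and C, below the lower quartile of all 35116 promoter windows of this length, whose quartiles were 19 and 40 pairs and whose median was 30. The GIT1 window held 25 GG and 30 CC at 81.3% G and C, the ADAP1 window 29 and 23 at 84.7%, and the SMAP2 window 28 and 16 at 72%. The second SMAP2 window, not printed, held 6 GG and 5 CC at 34.7%, also below the lower quartile, and which window goes with the start site that gave the SMAP2 phenotype is not known. All but 3 of the 35116 windows held at least 1 such pair, so a match is a description of the window and not of a site that was used. No build was stated for the positions of the library's sgRNAs, which were therefore not placed in these windows. Whether the printed window is the one that the sgRNAs target is thus not known for ADAP1, FBXO8 or GIT1 either.

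ADAP1, a GAP that binds phosphoinositides and acts on ARF6, had the lowest phenotype of the members, −0.25 ± 0.11 (SD, n = 5 sgRNAs). Its sgRNAs had 1420, 1142, 1580, 2507 and 3309 reads in the bottom quartile and, in the same order, 739, 609, 700, 1241 and 1578 in the top quartile. The phenotypes were −0.17, −0.14, −0.41, −0.25 and −0.30, all negative and all inside the range of the NTC sgRNAs. The exact p was 0.006 and its adjusted value 0.314, and the exact 95% interval of the shift from the NTC sgRNAs was −0.43 to −0.09. The last 3 of these sgRNAs lie on one strand with starts 3 bases apart, so they share most of their target and are not independent reads of the knockdown. ADAP2, the other member of this pair, had the opposite sign, 0.23 ± 0.25 (n = 5), with an interval of −0.02 to 0.46.

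SMAP2, a GAP that binds clathrin at the trans-Golgi network, had the highest phenotype, 0.26 ± 0.13 (n = 5), at the second of its annotated start sites. Bottom-quartile reads were 228, 403, 201, 449 and 1211, and top-quartile reads 234, 429, 191, 431 and 1019. The phenotypes were 0.35, 0.40, 0.24, 0.25 and 0.06, and the sgRNA with the most reads was nearest to 0. Those of 0.35 and 0.40 start 11 bases apart on one strand, and those of 0.25 and 0.06 start 3 bases apart on the other. Each pair overlaps, so the 5 values are not independent reads of the knockdown. The exact p was 0.01, the adjusted value 0.384 and the interval 0.07 to 0.50. At the first start site the 5 sgRNAs averaged −0.11 ± 0.25 with an exact p of 0.462, so the sign depended on the site. The paralog SMAP1, which acts on ARF6 in endocytosis, was at −0.01 ± 0.19 (n = 5).

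GIT1, a GAP that was found through its binding to G protein-coupled receptor kinases and that scaffolds PIX exchange factors and paxillin, had a phenotype of 0.24 ± 0.13 (n = 5). Its sgRNAs had 405, 885, 744, 1065 and 211 reads in the bottom and 389, 768, 694, 956 and 231 in the top quartile. The phenotypes were 0.25, 0.11, 0.21, 0.16 and 0.44, all positive, and the sgRNA with the fewest reads had the highest value. The exact p was 0.0217, the adjusted value 0.483 and the interval 0.03 to 0.47. The 2 sgRNAs of 0.16 and 0.44 start 3 bases apart on one strand, and those of 0.11 and 0.21 start 16 bases apart on the other. Each pair overlaps, so these are not independent reads of the knockdown. GIT2, its close paralog, had 4 analysed sgRNAs with 768, 619, 2137 and 958 reads in the bottom and 592, 538, 1673 and 936 in the top quartile. Their phenotypes were −0.06, 0.11, −0.04 and 0.28, which straddle 0 and gave 0.07 ± 0.16. The fifth sgRNA of GIT2, with 47 and 16 reads, was under the minimum of 50, and with it the mean of GIT2 turned to −0.19.

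FBXO8, an F-box protein with a Sec7 domain, had a phenotype of −0.23 ± 0.18 (n = 5) at its first start site. Its sgRNAs had 1361, 865, 1254, 1039 and 812 reads in the bottom and 1627, 911, 1081, 963 and 861 in the top quartile. Their phenotypes were 0.01, −0.17, −0.46, −0.36 and −0.16, so 1 of the 5 was at the NTC median. The exact p was 0.0351, the adjusted value 0.558 and the interval −0.44 to −0.02. The second start site gave −0.02 ± 0.11 (n = 5). The last of these sgRNAs is also listed under the neighbouring gene CEP44, and without it the mean over the other 4 was −0.24 with an exact p of 0.0539.

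**Figure D2:**
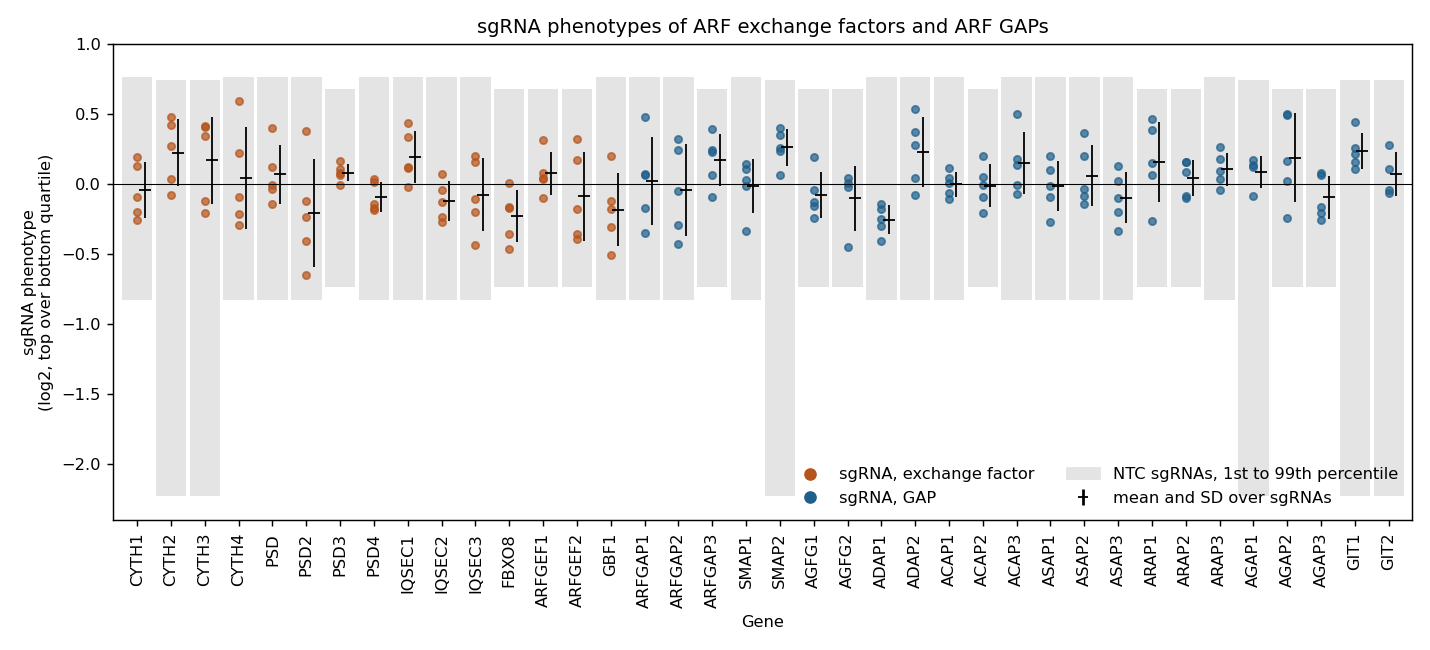
Phenotype of every analysed sgRNA at the start site used (points, log2, y axis) for each member (x axis), with the mean and SD over sgRNAs as black bars; grey bands span the NTC sgRNAs of that sublibrary from the 1st to the 99th percentile. All 187 points lie inside the bands, and the points of most genes fall on both sides of 0.

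At the level of single sgRNAs the members also stayed within the controls. Of 187 sgRNAs at the start sites used, 0 lay outside the NTC range of their sublibrary, from the 1st to the 99th percentile, against 2.12% of all analysed sgRNAs. Negative phenotypes were found for 87 and positive ones for 100. The lowest was −0.65, for an sgRNA against PSD2, and the highest 0.59, for one against CYTH4. Each had 191 to 3736 reads per library, and all 5 designed sgRNAs were analysed for 35 members. For the other 3 members, AGFG2, GIT2 and AGAP1, 4 were analysed.

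The exchange factors of the Golgi are the members closest to the secretory route of a newly made receptor. GBF1 activates ARF1 on early Golgi membranes and so recruits COPI, and its 5 sgRNAs gave −0.18 ± 0.26 with an exact p of 0.107. Reads were 1656, 984, 2475, 2216 and 1739 in the bottom and 1116, 532, 1021, 1055 and 902 in the top quartile. The phenotypes were 0.20, −0.12, −0.51, −0.30 and −0.18, with 4 of the 5 below 0. All 5 lie within 55 bases, and 3 pairs on one strand start less than 20 bases apart. ARFGEF1 and ARFGEF2, also called BIG1 and BIG2, act at the trans-Golgi network. ARFGEF1 had 2092, 2086, 1524, 1282 and 1346 reads in the bottom and 2551, 2309, 1913, 1896 and 1647 in the top quartile. Its phenotypes of 0.04, −0.10, 0.08, 0.32 and 0.04 averaged 0.08 ± 0.15. ARFGEF2 had 1189, 1351, 2838, 825 and 1226 reads in the bottom and 1588, 1223, 2972, 765 and 1818 in the top quartile. Its phenotypes of 0.17, −0.39, −0.18, −0.36 and 0.32 averaged −0.09 ± 0.32, with no common sign.

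The cytohesins are small exchange factors that bind phosphoinositides and load ARF6 and ARF1 at the plasma membrane, and CYTH2, or ARNO, is known to bind beta-arrestins. CYTH2 had the highest value of the exchange factors, 0.22 ± 0.24 (n = 5, exact p = 0.0679). Its reads were 1162, 509, 548, 322 and 840 in the bottom and 1129, 420, 615, 245 and 904 in the top quartile. The phenotypes were 0.27, 0.04, 0.48, −0.08 and 0.42, so 3 sgRNAs carried the mean. CYTH3 had 760, 738, 582, 1633 and 588 reads in the bottom and 817, 514, 595, 1208 and 629 in the top quartile. Its phenotypes of 0.42, −0.21, 0.34, −0.12 and 0.41 averaged 0.17 ± 0.31, in 3 high and 2 low values. CYTH1 had 2330, 789, 1642, 3217 and 612 reads in the bottom and 1147, 530, 905, 2070 and 313 in the top quartile, with phenotypes of −0.26, 0.19, −0.09, 0.13 and −0.20 and a mean of −0.04 ± 0.20. CYTH4 had 936, 880, 1376, 1339 and 2553 reads in the bottom and 642, 778, 698, 641 and 1405 in the top quartile. Its phenotypes of 0.22, 0.59, −0.21, −0.30 and −0.09 averaged 0.04 ± 0.36, and the SD was larger than the mean in each of the 4 cytohesins.

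The EFA6 exchange factors, named PSD to PSD4, are specific for ARF6. PSD2 had the lowest value among them, −0.21 ± 0.38 (n = 5), and the largest SD of all members. PSD4 was at −0.09 ± 0.11, PSD at 0.07 ± 0.21 and PSD3 at 0.08 ± 0.06, the smallest SD of all members. The BRAG exchange factors, which carry an IQ motif, lay at 0.20 ± 0.19 for IQSEC1 (exact p = 0.067), −0.12 ± 0.14 for IQSEC2 and −0.08 ± 0.26 for IQSEC3, each over 5 sgRNAs. Neither family had a common sign.

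Among the GAPs, ARFGAP1, ARFGAP2 and ARFGAP3 act on ARF1 in the COPI cycle, and over 5 sgRNAs each they gave 0.02 ± 0.31, −0.04 ± 0.33 and 0.17 ± 0.19. The AGFG proteins carry the GAP zinc finger, and AGFG1 is known as a clathrin-associated adaptor: AGFG1 was at −0.08 ± 0.17 (n = 5) and AGFG2 at −0.10 ± 0.23 (n = 4). The remaining GAPs combine the zinc finger with ankyrin repeats and lipid-binding domains. The ACAPs act on ARF6, and ACAP1 binds recycling cargo. ACAP1 was at −0.00159 ± 0.09, ACAP2 at −0.01 ± 0.15 and ACAP3 at 0.15 ± 0.22, each over 5 sgRNAs.

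The ASAPs, which bind Src-family kinases and focal adhesion proteins, were at −0.01 ± 0.18 for ASAP1, 0.06 ± 0.22 for ASAP2 and −0.10 ± 0.18 for ASAP3. The ARAPs, large GAPs with several lipid-binding domains, were all positive, with 0.16 ± 0.29 for ARAP1, 0.04 ± 0.13 for ARAP2 and 0.11 ± 0.12 for ARAP3. The AGAPs, which have a GTPase-like domain and bind clathrin adaptors, were at 0.09 ± 0.11 for AGAP1 (n = 4), 0.19 ± 0.32 for AGAP2 and −0.10 ± 0.16 for AGAP3. None of these 9 genes passed the unadjusted threshold.

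Over the whole set, 18 members were negative and 20 positive, with a median of 0.03. Over all genes 49.6% were negative, with a median of 0.0013. The 15 exchange factors split into 8 negative and 7 positive with a median of −0.04, and the 23 GAPs into 10 and 13 with a median of 0.04. So the genes classed by family as exchange factors and those classed as GAPs were both spread over both sides of 0. In order of phenotype, the largest gap between neighbours was 0.06, between GBF1 and IQSEC2, and each of these has a larger SD than that, 0.26 and 0.14. The gaps at the ends of the order were smaller, 0.03 from ADAP1 to FBXO8 and 0.03 from GIT1 to SMAP2. A difference between ADAP1 and SMAP2 follows from their places at the ends and was not tested.

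The split between signs was also counted in each sublibrary, with no test between them. In H17 the 6 members, SMAP2, GIT1, CYTH2, CYTH3, AGAP1 and GIT2, were all positive with a median of 0.20, where the median of all H17 genes was 0.02 and 2659 of 5907 were negative. With a minimum of 1 read, which keeps a further sgRNA of GIT2, GIT2 turned negative at −0.19. In H23 6 members were negative and 6 positive, with a median of 0.02. In H456 12 were negative and 8 positive, with a median of −0.01. H17 had the widest NTC sgRNAs and the fewest reads, and the part of these in the sign of its 6 members was not tested. When the phenotypes were centred on all analysed sgRNAs in place of the NTC sgRNAs, SMAP2 came to 0.23 and GIT1 to 0.20.

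**Figure D3:**
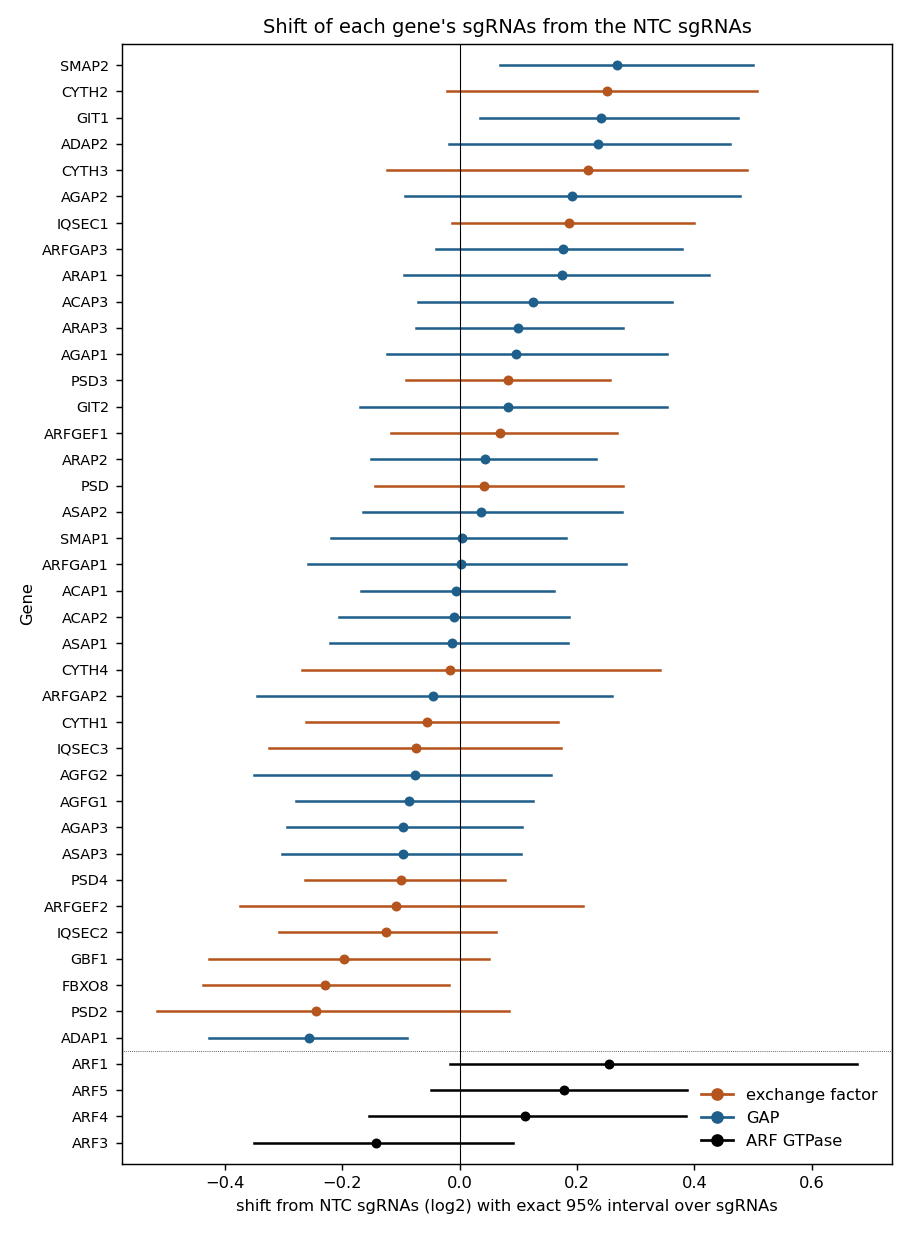
Hodges-Lehmann shift of the sgRNAs of each gene from the NTC sgRNAs (points, log2, x axis) with its exact 95% interval (lines) for the 38 members and, below the dotted line, ARF1, ARF5, ARF4 and ARF3; ARF6, at −0.99, is off the scale and not drawn. The intervals of 34 members hold 0, and 36 lie within −0.5 to 0.5.

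How far each member may lie from the NTC sgRNAs, given the spread over its sgRNAs, was read from the intervals of the shift. They held 0 for 34 of the 38 members and lay within −0.5 to 0.5 for 36. The exceptions were PSD2, whose lower bound was −0.52, and CYTH2, whose upper bound was 0.51. The smallest phenotypes of any genes called at an adjusted exact p under 0.05 were 0.48 in H17, 0.41 in H23 and 0.38 in H456, without regard to sign. The phenotypes of ADAP1 and SMAP2 were smaller than these in size. The intervals cover the spread over sgRNAs only and treat overlapping sgRNAs as independent. Where a gene has separate start sites, its interval rests on the site with the lower p. How far each gene was knocked down is not known, so these intervals set no limit on the effect of its loss.

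The spread within genes was larger than counting error. The SD over sgRNAs had a median of 0.19 over the members, while the SD from read counts alone had a median of 0.06 per sgRNA. In 22 members, 36 pairs of sgRNAs start less than 20 bases apart on the same strand and so overlap. Their phenotypes differed by a median of 0.17 (range 0.03 to 1.03), and those of the other 332 pairs within the members by a median of 0.21. For overlapping pairs the median SD of such a difference from counting alone was 0.09. The widest overlapping pair was in PSD2, 7 bases apart, at −0.65 and 0.38. In ARFGEF2 a pair 3 bases apart gave 0.17 and −0.39. The median overlapping pair thus differed by more than its counting SD. How much of their target the sgRNAs of a pair share varies, from starts 3 bases apart to starts 18 bases apart.

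For 5 members the library targets separate start sites, and a gene was represented by whichever site had the lower p, which favours low p-values in FBXO8 and SMAP2. Values at both sites were 0.00339 ± 0.16 and 0.16 ± 0.29 for ARAP1, 0.02 ± 0.10 and −0.12 ± 0.14 for IQSEC2, and 0.10 ± 0.40 and 0.07 ± 0.21 for PSD, in the order of the first and second site. The sites of IQSEC2, like those of SMAP2, differed in sign.

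The number of reads per sgRNA, taken over both quartiles, is a readout that the phenotype does not use, because cells with a harmful knockdown become fewer in both. Relative to the median NTC sgRNA, the median sgRNA of a member had 0.753 (AGAP2) to 1.92 times as many reads (PSD4), with a median of 1.18. The median over all genes was 1.02, with 5th and 95th percentiles of 0.445 and 1.73. Of the members, 27 were above 1 and 0 were below the 5th percentile. The share of all genes above 1 was not counted, but their median was above it too. The deeper library of a sublibrary, such as the bottom quartile in H456, weighs more in this sum of reads. GBF1, needed for Golgi structure, was at 1.44 and ARFGEF1 at 1.41. ADAP1 was at 1.19, GIT1 at 1.08, FBXO8 at 0.83 and SMAP2 at 0.765. No sample of the cells at the start of the knockdown was analysed here, so differences in the abundance of sgRNAs in the plasmid library and losses of cells cannot be told apart.

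**Figure D4:**
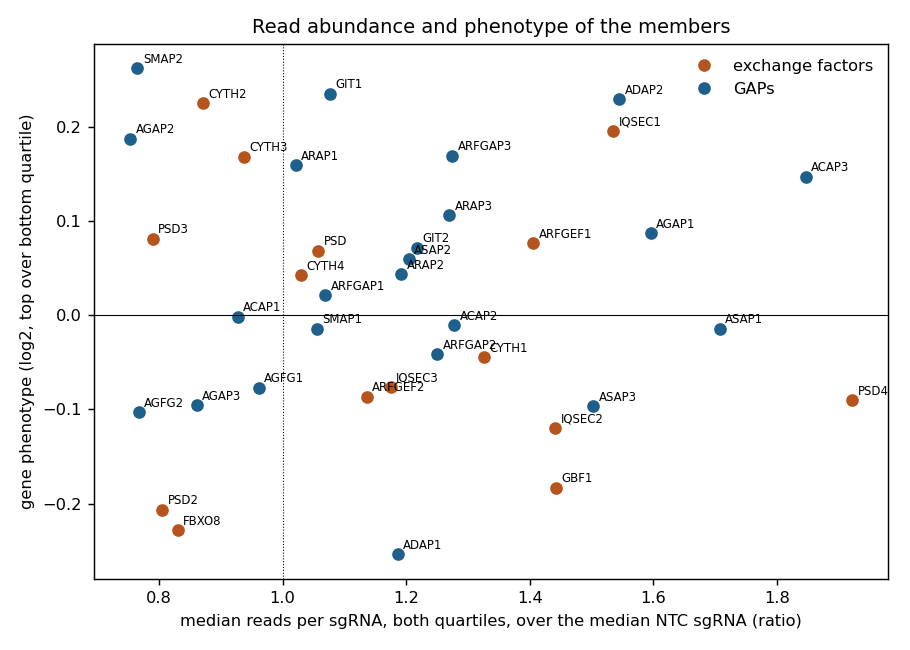
Median reads per sgRNA over both quartiles, as a ratio to the median NTC sgRNA (x axis), against gene phenotype (log2, y axis) for the 38 members, with exchange factors in orange and GAPs in blue and the dotted line at a ratio of 1. The members lie between 0.753 and 1.92 on the x axis, 27 of them right of the line, with both signs of phenotype on either side.

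The substrates and effectors of these regulators were measured in the same libraries. Their lists, the COPI subunits among them, were also chosen with earlier results of these data known. Of the ARF GTPases, ARF6 had a phenotype of −1.28 ± 1.33 (n = 5, exact p = 0.000724, adjusted p = 0.102) and passed the pseudogene threshold. This is the value at the second of its 2 start sites, chosen for its lower p, in H17. The value at its first site is not given. Without the strongest sgRNA of the second site, at −3.49, the mean was −0.72. ARF1 was at 0.30 ± 0.38 (exact p = 0.0679), ARF3 at −0.13 ± 0.21 and ARF4 at 0.09 ± 0.20. ARF5 was at 0.17 ± 0.23 at the first of its 2 start sites. Every member lay between −0.25 and 0.26, nearer to 0 than ARF6 at its second site. These included the EFA6 and BRAG exchange factors and the ACAP GAPs that act on ARF6. Of 10 effectors and recycling factors of ARF6, 3 were negative and 7 positive, and 0 passed the exact Mann-Whitney test at an unadjusted p under 0.05 or after adjustment.

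Among 18 coat subunits and adaptors of ARF1, 12 were negative, and the 3 that passed an unadjusted exact p of 0.05 were all COPI subunits with a negative phenotype, where 4.05% of all genes passed in that direction. COPA was at −0.33 ± 0.18 (exact p = 0.00234), COPB2 at −0.33 ± 0.30 (exact p = 0.0168) and COPZ1 at −0.29 ± 0.20 (exact p = 0.0109), each over 5 sgRNAs. The COPZ1 value is that at the first of its 2 start sites. The 9 COPI subunits had a median of −0.24, with 7 negative and 2 positive. GBF1, which recruits COPI through ARF1, was at −0.18 (exact Mann-Whitney p = 0.107), whereas ARF1 itself was at 0.30. A link between these values was not tested. Of 11 binding partners of cytohesins and GIT proteins, ARRB1, which encodes beta-arrestin 1, passed at 0.18 ± 0.10 (exact p = 0.0382), and 6 of the 11 were negative and 5 positive. None of the 44 partner genes passed an adjusted exact p of 0.05 in the Mann-Whitney U test, against 0.476% of all genes. Unadjusted, 5 of the 44 passed against 8.12% of all genes, 4 of them negative against 4.05%.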

How the data were processed

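Counts of integrated sgRNAs were measured in 6 libraries, 1 per fluorescence quartile and sublibrary, grouped by sample title. The authors amplified sgRNAs from genomic DNA with 27 PCR cycles without molecular identifiers, shortened reads to 38 bp and counted each sgRNA with ScreenProcessing. The deposited values are raw counts for 209070 sgRNAs in every library. For sgRNA positions, the genome build is not given in the sources used.

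The 38 members and all gene lists were chosen with earlier results of these data known. sgRNAs with at least 50 reads in either library and at least 10% of their reads in the sublibrary of their gene were analysed, and 1 was added to both counts where one was 0. These were 96.2% to 98.5% of reads. Of 430 library entries for the members, 214 had reads, 212 were analysed and 187 lay at the start site used, the one with the lower p among those with at least 2 sgRNAs. Genes were tested by a two-sided exact Mann-Whitney U test against NTC sgRNAs, with Benjamini-Hochberg adjustment over 18905 genes. With 1 library per group, a test between samples was not possible. For the pseudogene threshold, pseudogenes of 5 NTC sgRNAs were scored by phenotype over their SD times −log10 p, and the threshold was the lowest score at or above which less than 10% of genes and pseudogenes together were pseudogenes. Intervals of the shift are exact Hodges-Lehmann intervals at 95%. Named were all members, with every sgRNA for the large Golgi exchange factors, cytohesins, GIT genes and members with an unadjusted p under 0.05, then the ARF GTPases and partners with an unadjusted p under 0.05. A gene named as a check of direction is not reported here. Alternatives were other read minimums, pseudocounts, centrings (edgeR 4.0.16 TMM factors among them), summaries over sgRNAs, comparison sets, start site rules, depths and pseudogene draws. The procedure was tested on simulated data. Python 3.11.15, numpy 2.4.6, scipy 1.17.1, pandas 2.3.3, matplotlib 3.10.9 and R 4.3.3 were used.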

Additional observations from a re-analysis of the deposited data

How the results depend on the processing

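Under each of the 14 alternative settings of the reads, centring, summary and start sites, 0 members passed an adjusted exact p of 0.05 or the pseudogene threshold, and the latter count was also 0 at less than 5% pseudogenes and with 10 other draws of pseudogenes. The number of members past an unadjusted exact p of 0.05 fell from 4 to 2 without the strongest sgRNA of each gene, and to 2 with sgRNAs pooled over start sites. In the first setting GIT1 came to 0.18 and FBXO8 to −0.17, with exact Mann-Whitney p of 0.0781 and 0.128. The part of fewer sgRNAs and that of the smaller means were not tested apart. In the second, which adds the sgRNAs of the other start site, SMAP2 came to 0.08 and FBXO8 to −0.13, with exact Mann-Whitney p of 0.230 and 0.0964. ADAP1 and GIT1, without separate sites, kept their p. ADAP1 passed in 14 of the 14 settings, SMAP2 and GIT1 in 13 and FBXO8 in 11. The changes of centring, and the summaries by the median or the strongest sgRNAs, leave this rank test and its adjusted p unchanged. Passes in those settings repeat the main result and are not further checks. The phenotype of 13 members, at most 0.103 in size as reported, changed sign in at least 1 setting, and 25 kept theirs. Among the 13, GIT2 went from 0.07 to −0.19 with a minimum of 1 read. Over all genes, the number past an adjusted exact p of 0.05 was 90, and it was 22 without the strongest sgRNA and 50 when sgRNAs for olfactory receptor genes took the place of the NTC sgRNAs. No paired analysis was possible because each quartile of each sublibrary has 1 library. Each member sgRNA at the start site used had 191 to 3736 reads per library, and the spread between sorts was not measured, since each was made once.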
